A study of Mus musculus with 8 samples.

Results

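Fibroblast growth factor (FGF) signalling was described in whole mouse hearts at postnatal day 4 through 43 protein-coding genes, out of 22046 protein-coding genes and 54532 genes in all in the deposited table. The 43 were chosen by name: FGF ligands, FGF receptors and their Klotho co-receptors, the FRS adaptors, FGF binding proteins, FLRT membrane proteins, and the Sprouty and SPRED feedback inhibitors. The cHET hearts (4 libraries) had the genotype Mrps5 fl/+; Myh6-Cre, in which Cre driven by the cardiomyocyte promoter Myh6 removes 1 allele of Mrps5 late in embryonic life, per the labels. Mrps5 encodes a mitochondrial ribosomal protein. Control hearts (4 libraries) were littermates that carried the same Mrps5 fl/+ genotype without Cre. Myh6-Cre acts in myocytes, and there was no group with Cre alone, so Cre itself and the loss of an allele cannot be told apart. The series calls the libraries of a group biological replicates.

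Secreted FGF ligands bind receptor tyrosine kinases on the cell surface together with heparan sulfate or a Klotho protein, and the receptor then acts through FRS adaptors, RAS and the ERK kinases. Sprouty and SPRED proteins are made in response and damp the same pathway. A separate branch of the family, the FGF homologous factors, stays inside the cell and binds voltage-gated sodium channels. In the mouse heart, FGF ligands from the epicardium and endocardium are known to drive cardiomyocyte growth before birth.

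Libraries held 15490622 to 19234777 rebuilt reads and expressed the cardiomyocyte genes Tnnt2 (876 to 1189 FPKM) and Myh6 (1362 to 2917 FPKM), as a heart should. Mrps5 stood at 6.84, 7.12, 7.00 and 7.68 FPKM in cHET 1 to 4, against 11.6, 6.27, 10.1 and 5.15 FPKM in control 1 to 4. The means were 7.16 ± 0.365 FPKM in cHET and 8.27 ± 3.05 FPKM in control (SD, n = 4; exact two-sided permutation test, p = 0.486, where the smallest possible is 0.0286). The cHET values lay within the control range, so this gene did not separate the labels. Libraries also differed in ways that the labels do not give: all 5 atrial markers were lowest in cHET 3, and the brown fat gene Ucp1 was 17.8 and 16.7 FPKM in control 1 and control 2. By Xist and the Y-linked gene Ddx3y, cHET 1, control 1 and control 3 were male.

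No FGF gene passed the test between cHET and control hearts. Of the 43 genes, 21 had a mean of at least 1 FPKM (fragments per kilobase of gene, scaled to library depth) and were tested; 8 averaged from 0.1 to under 1 FPKM, 11 averaged less, and 3 were listed at 0 in every library. No tested member passed (limma, Benjamini-Hochberg adjusted p of 0.371 to 0.996), against 3 of 13029 genes, or 0.0230% of all genes tested. At an unadjusted limma p under 0.05 the count was 1 member, Flrt2, against 8.95% of all genes tested. The median log2 fold change, cHET minus control on the log2(FPKM + 1) scale, was -0.0023 over the 21 members and 0.0086 over all genes tested, with 9 members above 0 and 12 below. Of all genes tested, 52.1% were above 0. Under these settings the widest 95% interval was that of Fgf12 (-1.72 to 1.17), and the intervals of the other 20 members lay within -0.56 and 0.83.

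**Figure D1:**
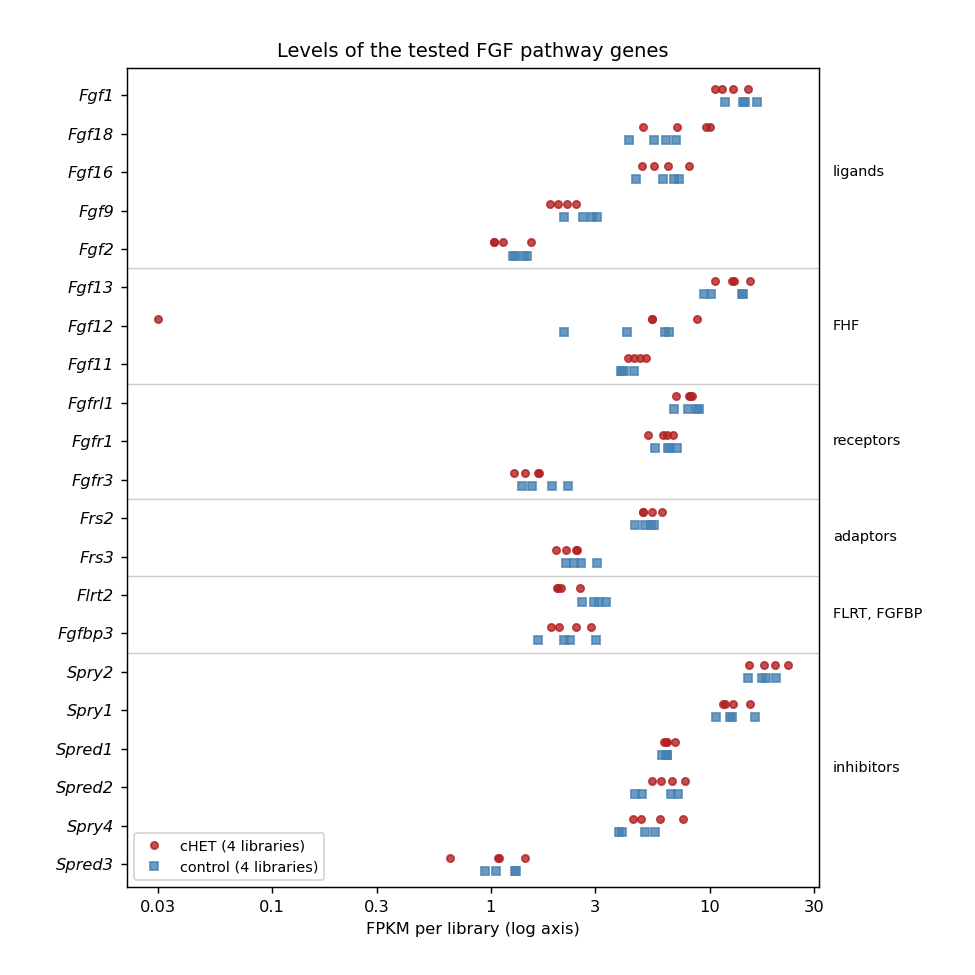
FPKM of the 21 tested FGF pathway genes (horizontal log axis), with 1 point for each of 4 cHET libraries (red circles, upper row of each gene) and 4 control libraries (blue squares, lower row), grouped by role (FHF, FGF homologous factors). The groups overlap for each gene but Flrt2, and 1 cHET library has Fgf12 at 0.0301 FPKM.

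**Figure D2:**
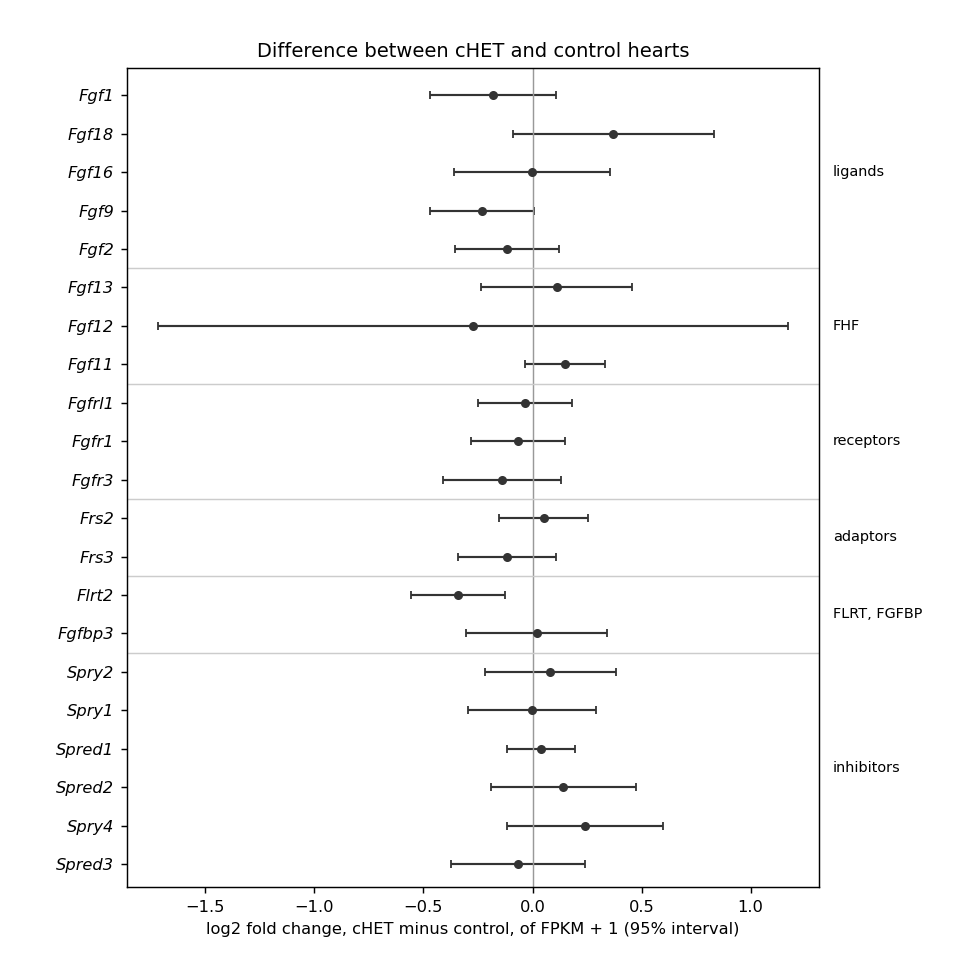
Log2 fold change of FPKM + 1, cHET minus control (points), with 95% limma intervals (bars) for the 21 tested genes, 4 libraries per group. The interval of Flrt2 is the one that lies wholly below 0, at -0.56 to -0.13, and that of Fgf12 is the widest.

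Among the tested members, Fgf12 had the widest range of FPKM between libraries. Fgf12 encodes a homologous factor that sets sodium channel inactivation (ENSMUSG00000022523, chr16:28160098-28753068, minus strand). It stood at 5.44, 8.73, 0.0301 and 5.44 FPKM in cHET 1 to 4, against 4.17, 6.22, 6.53 and 2.16 FPKM in control 1 to 4. The library cHET 3 was almost without Fgf12, at 3 rebuilt reads against 219 to 1079 in the other 7 libraries, and control 4 was the next lowest. Its 95% exact Poisson interval was 0.0062 to 0.0880 FPKM in cHET 3 and 1.88 to 2.46 FPKM in control 4, covering counting error only. The group means were 4.91 ± 3.60 FPKM in cHET and 4.77 ± 2.03 FPKM in control (SD, n = 4), and limma put the log2 fold change at -0.27 (SE 0.638, adjusted p = 0.898). Without cHET 3 the log2 fold change was 0.44 (limma, adjusted p = 0.880), so the sign of the difference rested on that library.

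Over the 8 libraries, Fgf12 was most like Myl7, a gene of the atria. Among protein-coding genes tested, the 3 with the highest Pearson correlation of log2(FPKM + 1) to Fgf12 were Myl7, the atrial myosin light chain (r = 0.991), the kinase gene Tnk2 (0.989) and Mybphl, a myosin-binding protein gene of the atria (0.982). These values describe 8 libraries of which cHET 3 and control 4 stand apart, and Fgf12 was picked for this search after its values were seen. Myl7 stood at 2272, 3775, 69.0 and 2179 FPKM in cHET 1 to 4, against 2071, 2252, 2918 and 643 FPKM in control 1 to 4. Mybphl stood at 62.4, 86.6, 0.976 and 59.0 FPKM in the same cHET libraries, against 53.6, 54.5, 78.4 and 21.6 FPKM in the control libraries. All 3 genes were therefore highest in cHET 2, lowest in cHET 3 and next lowest in control 4. The 5 atrial markers Sln, Myl7, Nppa, Myl4 and Bmp10 summed to 242 to 5302 FPKM over the cHET libraries and 1484 to 5155 FPKM over the control libraries, 5 of 5 had a log2 fold change below 0 and none was at 0 in any library. The part of atrial tissue in the values of Fgf12 was not tested, and in whole hearts fewer cells of a type and less RNA per cell cannot be told apart.

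**Figure D3:**
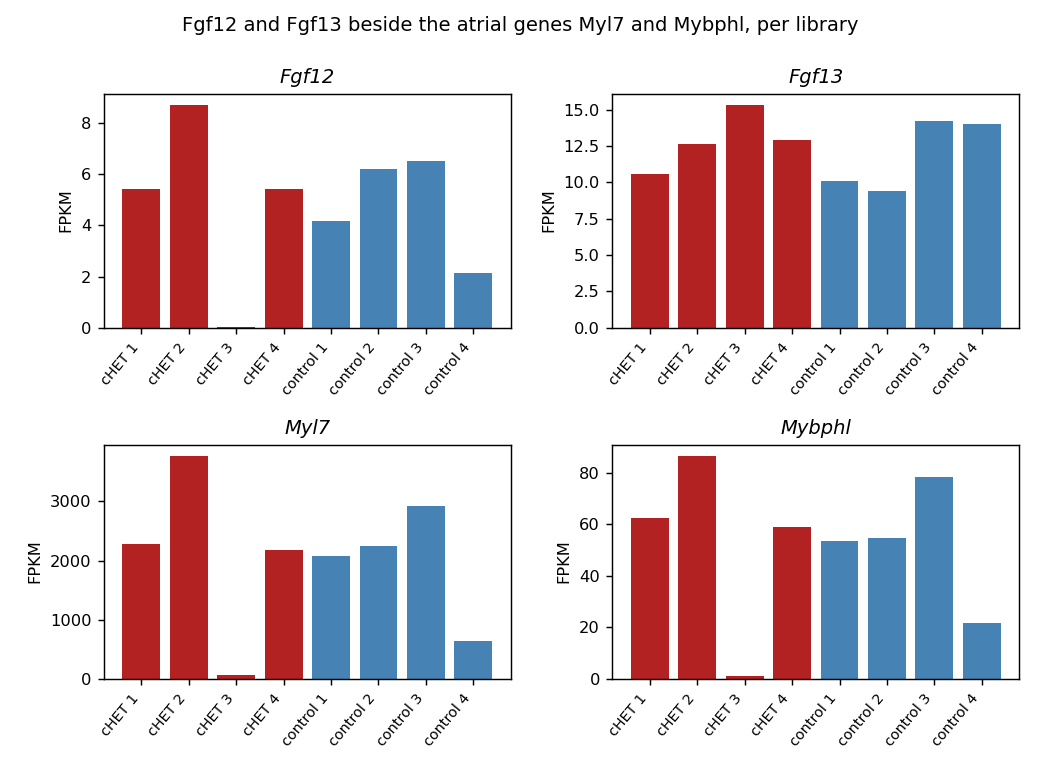
FPKM per library (bars; cHET 1 to 4 in red, control 1 to 4 in blue) of the homologous factor genes Fgf12 and Fgf13 and of the atrial genes Myl7 and Mybphl. Fgf12, Myl7 and Mybphl are lowest in cHET 3 and next lowest in control 4, whereas Fgf13 is highest in cHET 3, at 15.3 FPKM.

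Fgf13, the sodium channel partner gene most abundant among the homologous factors here, did not follow Fgf12. It stood at 10.6, 12.6, 15.3 and 12.9 FPKM in cHET 1 to 4, against 10.1, 9.41, 14.2 and 14.0 FPKM in control 1 to 4. Its highest value was in cHET 3, the library with the lowest Fgf12, and the groups overlapped (limma log2 fold change 0.11, SE 0.154, adjusted p = 0.812). The cardiomyocyte markers summed to 15566 to 19095 FPKM in cHET and 16656 to 18517 FPKM in control, and cHET 3 had the highest sum of the 8 libraries. Fgf11, a further homologous factor, stood at 4.50, 5.13, 4.81 and 4.24 FPKM in cHET 1 to 4, against 3.98, 4.51, 3.91 and 4.05 FPKM in control 1 to 4. Control 2 was the single control library above any cHET library for Fgf11, and the difference did not pass (limma log2 fold change 0.15, SE 0.081, adjusted p = 0.629). The genes most like Fgf11 over the 8 libraries were Rbpj (r = 0.923), Tcf7 (0.908) and Tsr2 (0.903). Fgf14, the remaining homologous factor, lay between 0.134 and 0.406 FPKM, at 9 to 29 reads per library.

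Promoter sequence is shown for Fgf12 and Fgf13 because the levels of these paralogs took opposite extremes in cHET 3. RefSeq sequences on GRCm38.p6 matched 33 of the 43 genes by symbol, with 40 transcription starts, and the 250 bases before each start were searched on both strands. Capitals mark a match to the MEF2 consensus, the motif of a muscle transcription factor family, which 2.92% of all 32851 promoters of this length contained. Of the 40 starts of FGF genes 2 contained it, 1 of Fgf12 and 1 of Fgf13, and both lie upstream of the gene bounds that the deposited table gives.
Fgf12, chr16:28753244-28753493, minus strand: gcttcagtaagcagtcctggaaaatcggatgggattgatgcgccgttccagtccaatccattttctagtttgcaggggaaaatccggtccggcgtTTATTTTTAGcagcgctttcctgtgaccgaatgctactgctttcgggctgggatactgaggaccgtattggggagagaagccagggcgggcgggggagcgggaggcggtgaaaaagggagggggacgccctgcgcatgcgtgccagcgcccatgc
Fgf13, chrX:59585573-59585822, minus strand: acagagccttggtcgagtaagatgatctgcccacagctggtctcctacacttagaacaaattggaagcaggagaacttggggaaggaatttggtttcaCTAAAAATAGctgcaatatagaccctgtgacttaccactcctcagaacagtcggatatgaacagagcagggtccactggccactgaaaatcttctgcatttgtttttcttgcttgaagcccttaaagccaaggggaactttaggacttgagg
The match begins 155 bases before the start of Fgf12 and 152 bases before that of Fgf13. The other 3 RefSeq starts of Fgf12 and the other 3 of Fgf13 had no match in this window, and the deposited values, 1 per gene, do not separate the starts. Of the same 40 starts, 0 held the T-box letters AGGTGTG, 1 the GATA letters AGATAAG, 1 the NKX letters TNAAGTG and 2 the ETS letters CCGGAAG, against 5.11%, 2.74%, 10.1% and 6.91% of all promoters. A match is a stretch of letters and says nothing on binding.

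Among the secreted ligands, 5 of 15 paracrine genes reached 1 FPKM, and 4 of these 5 had a log2 fold change below 0. Over all genes tested, 52.1% were above 0. Fgf1, the acidic FGF that binds each FGF receptor, was the most abundant secreted ligand at 11.4, 10.6, 15.0 and 12.8 FPKM in cHET 1 to 4, against 14.5, 11.7, 14.2 and 16.5 FPKM in control 1 to 4. The groups overlapped, with cHET 3 above control 1, 2 and 3, and the limma log2 fold change was -0.18 (SE 0.128, adjusted p = 0.677). Fgf16, a ligand that mouse cardiomyocytes make around birth, had equal group means at 6.23 ± 1.35 FPKM in cHET and 6.23 ± 1.19 FPKM in control (SD, n = 4). Fgf2, the basic FGF, stood between 1.04 and 1.53 FPKM in cHET and between 1.26 and 1.46 FPKM in control, and it overlaps the gene Nudt6 in the table, so its reads may be shared.

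Fgf9, the ligand that the epicardium and endocardium of the mouse embryo supply to cardiomyocytes, had the second smallest p of the 21 members. It stood at 2.44, 1.86, 2.24 and 2.02 FPKM in cHET 1 to 4, against 2.91, 2.65, 3.04 and 2.15 FPKM in control 1 to 4. Control 1, 2 and 3 lay above each cHET library, and control 4 lay among the cHET values. The means were 2.14 ± 0.255 FPKM in cHET and 2.69 ± 0.391 FPKM in control (SD, n = 4), and limma gave -0.23 on the log2 scale (SE 0.106, adjusted p = 0.572). The genes most like Fgf9 over the 8 libraries were Cbr1 (r = 0.941), Arfip1 (0.940) and Hes6 (0.930).

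Fgf18, a ligand known from bone and lung development, had the highest log2 fold change of the members. It stood at 4.98, 7.06, 10.1 and 9.61 FPKM in cHET 1 to 4, against 4.28, 5.58, 6.30 and 7.00 FPKM in control 1 to 4. The libraries cHET 2, 3 and 4 lay above each control library, whereas cHET 1 lay below 3 of the 4. The means were 7.93 ± 2.37 FPKM in cHET and 5.79 ± 1.16 FPKM in control (SD, n = 4), and limma gave 0.37 on the log2 scale (SE 0.205, adjusted p = 0.629). Without control 1 and control 2 its log2 fold change was 0.18 (limma, adjusted p = 0.882).

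The other paracrine ligands were near the limit of detection, and Fgf8 had the one separation between groups among them. Fgf8, a ligand of the embryonic outflow tract, had 1, 0, 0 and 0 rebuilt reads in cHET 1 to 4, against 7, 2, 6 and 2 reads in control 1 to 4. Each control library had more reads than each cHET library. Fgf8 reached a mean of 0.1 FPKM only through the control libraries, so this separation is given as a description, with no test. Summed over libraries, cHET held 1 read and control 17, and pooled reads do not measure the variation between hearts. The highest level of Fgf8 in any library was 0.334 FPKM. Fgf7 lay between 0.106 and 0.376 FPKM (6 to 20 reads) and Fgf17 between 0 and 0.191 FPKM (0 to 5 reads). Fgf3, Fgf5, Fgf6, Fgf10 and Fgf22 averaged below 0.1 FPKM with at most 7 reads in a library. Fgf4 and Fgf20 were at 0 reads, which at 3 reads per library allows up to 0.0606 and 0.115 FPKM.

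Endocrine FGFs were almost absent. Fgf21, a hormone known to be released by tissues under mitochondrial stress, had 1, 0, 1 and 2 reads in cHET 1 to 4, against 0, 1, 1 and 2 reads in control 1 to 4. A difference in Fgf21 was not detectable at this depth. Fgf23, the hormone of phosphate balance, had 0 to 7 reads per library with the 7 in control 2, and Fgf15 was at 0 reads in all 8, which allows up to 0.0633 FPKM. Their co-receptor genes were as low: Klb, which encodes beta-Klotho, had 0 to 9 reads and Kl, which encodes Klotho, 0 to 8 reads. Klb stood at 0, 0.0992, 0.0137 and 0.0633 FPKM in cHET 1 to 4, against 0.0425, 0.0544, 0.0418 and 0.0403 FPKM in control 1 to 4. The control values of Klb rest on 3, 4, 3 and 3 reads, too few to resolve a difference between libraries.

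Of the signalling receptors, Fgfr1 was the main one in these hearts. It stood at 6.35, 6.77, 5.22 and 6.12 FPKM in cHET 1 to 4, against 5.65, 6.60, 6.42 and 7.12 FPKM in control 1 to 4 (limma log2 fold change -0.067, SE 0.096, adjusted p = 0.821). The groups overlapped, and cHET 3 was the lowest library. Fgfrl1, a receptor without a kinase domain, was as abundant at 7.00, 8.31, 8.15 and 8.03 FPKM in cHET 1 to 4, against 6.85, 8.90, 8.72 and 7.97 FPKM in control 1 to 4 (log2 fold change -0.035; limma, adjusted p = 0.913). Under scaling to an equal FPKM sum, the log2 fold changes of Fgfr1 and Fgfrl1 were 0.017 and 0.052. Fgfr3 stood at 1.66, 1.65, 1.28 and 1.43 FPKM in cHET 1 to 4, against 1.55, 1.91, 1.38 and 2.26 FPKM in control 1 to 4 (log2 fold change -0.14; limma, adjusted p = 0.720). Fgfr2 lay just under the level for testing, at 0.513 to 0.690 FPKM in cHET and 0.480 to 1.00 FPKM in control, and its gene bounds in the table contain 69 other genes. Fgfr4 had 1 to 10 reads per library.

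Neither of the adaptors that link receptors to RAS passed the test. Frs2, the docking protein of FGF receptors, stood at 6.08, 4.94, 5.47 and 4.98 FPKM in cHET 1 to 4, against 5.04, 4.54, 5.39 and 5.59 FPKM in control 1 to 4 (log2 fold change 0.052; limma, adjusted p = 0.858). Frs3, its relative, stood at 2.21, 2.44, 2.47 and 1.99 FPKM in cHET 1 to 4, against 2.57, 3.07, 2.21 and 2.40 FPKM in control 1 to 4 (log2 fold change -0.12; limma, adjusted p = 0.717). The ranges of the groups overlapped for both.

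Flrt2 was lower in each cHET library than in any control library, so that it alone of the 21 had groups without overlap, which 4.74% of all genes tested showed. A count of 1 in 21 is close to that share, so the count is not a result about the members. It encodes a membrane protein with leucine-rich repeats that binds FGF receptors and, in mouse embryos, holds the epicardium intact (ENSMUSG00000047414, chr12:95692226-95785215, plus strand). Flrt2 stood at 2.00, 2.55, 2.02 and 2.08 FPKM in cHET 1 to 4, against 2.95, 3.35, 3.11 and 2.60 FPKM in control 1 to 4. The gap between the groups was narrow, since cHET 2 and control 4 were almost level, at 2.55 and 2.60 FPKM. Those values rest on 392 and 329 rebuilt reads, in libraries of unlike depth. The means were 2.16 ± 0.260 FPKM in cHET and 3.00 ± 0.314 FPKM in control (SD, n = 4), a ratio of 0.719. The log2 fold change was -0.34 (SE 0.095, 95% interval -0.56 to -0.13), with an unadjusted p of 0.0056 and an adjusted p of 0.371 in limma. Its log2 fold change was -0.46 to -0.27 over 19 other settings, and it did not pass in any (limma, adjusted p 0.180 to 0.849). With each library scaled to an equal FPKM sum the groups of Flrt2 overlapped.

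**Figure D4:**
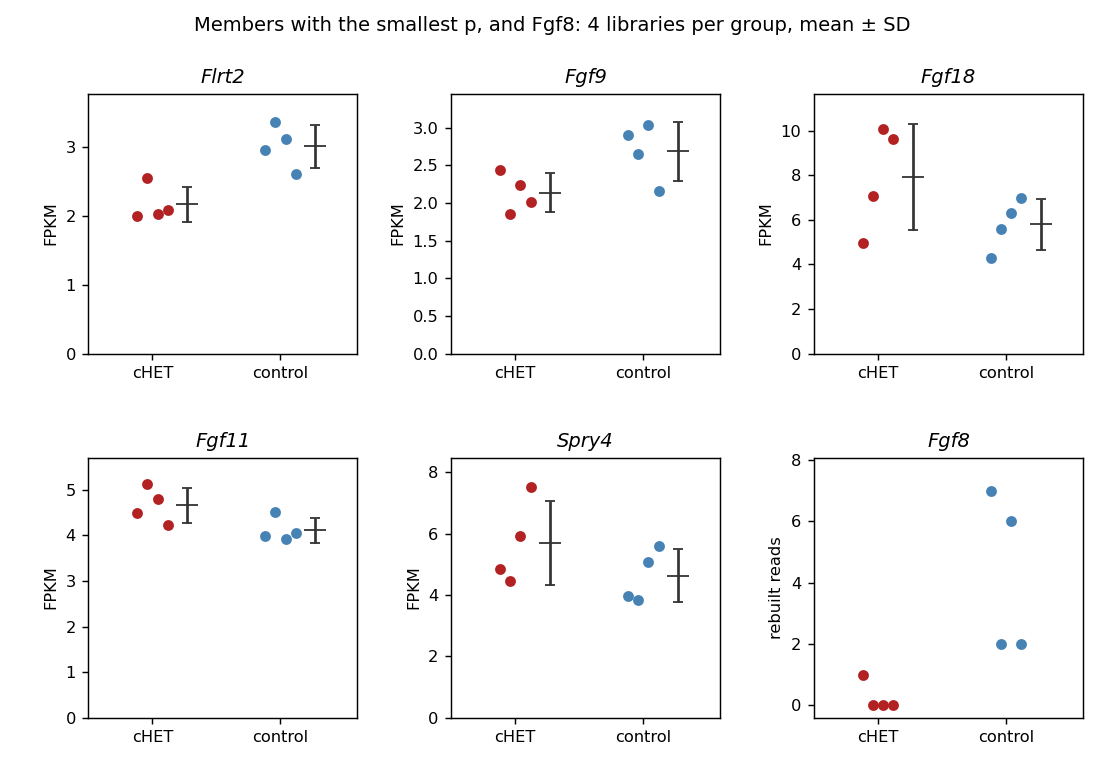
FPKM per library (points; 4 cHET in red, 4 control in blue) with mean and SD (bars) for the 5 tested members with the smallest p, and rebuilt reads per library for Fgf8. For Flrt2 and Fgf8 the cHET points lie below all control points, and for Fgf9, Fgf18, Fgf11 and Spry4 the groups overlap.

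Most markers of several cell types had a log2 fold change below 0, as Flrt2 and Fgf9 did. Of all genes tested, 52.1% were above 0. Markers of a list are not independent of each other, and the counts of signs were not tested. Of 10 cardiomyocyte markers 6 were below 0 (median -0.15, 1 with an unadjusted limma p under 0.05). All 5 atrial markers were below 0 (median -0.99, 0 with such a p). Smooth muscle and pericyte markers were below 0 for 4 of 6, erythroid for 3 of 5, fat for 2 of 4 tested and neuronal for 1 of 2 tested. Of 7 epicardial and mesothelial markers 6 had a log2 fold change below 0, with a median of -0.70, and the list summed to 22.0 to 44.5 FPKM in cHET and 45.0 to 94.6 FPKM in control. Within that list, the mesothelial genes Msln (11.6 FPKM in cHET and 22.1 FPKM in control) and Upk3b (6.75 FPKM in cHET and 14.8 FPKM in control) were lower on average. The epicardial transcription factor genes had close means, at 2.93 FPKM in cHET and 2.92 FPKM in control for Wt1, and 6.03 FPKM in cHET and 5.71 FPKM in control for Tbx18. The sums of the list did not overlap between groups, but the gap was narrow, at 44.5 FPKM in cHET 2 and 45.0 FPKM in control 3. Control 2 held the 94.6 FPKM, while control 1 and control 4 had 52.5 and 48.0 FPKM. No marker of the list was at 0 in any library. Whether the gap holds under other scalings or without control 1 and control 2 was not tested. The fibroblast markers were below 0 for 8 of 8, with a median of -0.21, and summed to 463 to 780 FPKM in cHET and 536 to 781 FPKM in control. Of the 7 endothelial markers 5 were below 0, with a median of -0.19 and sums of 212 to 228 FPKM in cHET and 205 to 256 FPKM in control. Of the 8 leukocyte markers 7 were tested and 7 were below 0, with a median of -0.53 and sums of 59.9 to 95.2 FPKM in cHET and 79.7 to 168.9 FPKM in control. No marker of these lists passed (limma). An unadjusted limma p under 0.05, which 8.95% of all genes tested had, was found for 4 of the 7 epicardial and mesothelial markers, 0 of the 8 fibroblast markers, 3 of the 7 endothelial markers and 5 of the 7 leukocyte markers. The genes most like Flrt2 over the 8 libraries were Dnajc24 (r = 0.979), the chemokine scavenger gene Ackr4 (0.976) and Hebp2 (0.975). Like Flrt2, all 3 were lower in each cHET library than in any control library. Flrt2 was picked by its small p between the groups, so this likeness says nothing on cell type. The part of cell composition in the values of Flrt2 and Fgf9 was not tested.

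The 250 bases before the RefSeq start of Flrt2 are shown because it alone of the tested members had groups without overlap. None of the 5 motifs searched is in this window.
Flrt2, chr12:95691976-95692225, plus strand: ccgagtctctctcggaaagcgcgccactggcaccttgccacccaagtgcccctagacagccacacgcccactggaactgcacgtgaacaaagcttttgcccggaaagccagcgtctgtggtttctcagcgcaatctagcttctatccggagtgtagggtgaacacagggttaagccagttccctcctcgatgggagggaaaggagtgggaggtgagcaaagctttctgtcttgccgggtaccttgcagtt

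The relatives of Flrt2 were lower in level and showed no such gap. Flrt3 lay between 0.301 and 0.887 FPKM in cHET and 0.238 and 0.443 FPKM in control, with 86 reads in cHET 2 and 19 to 41 in the other libraries. Flrt1 lay between 0.242 and 0.500 FPKM, and it overlaps Macrod1, a gene at 91.7 FPKM, so its reads may be shared. Fgfbp3, which releases FGFs from the matrix, stood at 2.44, 2.04, 2.88 and 1.88 FPKM in cHET 1 to 4, against 3.02, 2.17, 1.65 and 2.31 FPKM in control 1 to 4 (log2 fold change 0.019; limma, adjusted p = 0.972). Fgfbp1 had 0 to 5 reads per library.

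The feedback inhibitors included the most abundant member, and 4 of the 6 tested had a log2 fold change above 0. Over all genes tested, that share was 52.1%. Spry2, a Sprouty protein that blocks RAS activation, had the highest mean of all members at 17.6, 15.1, 22.7 and 19.9 FPKM in cHET 1 to 4, against 15.0, 18.2, 20.2 and 17.3 FPKM in control 1 to 4. Its groups overlapped (limma log2 fold change 0.081, SE 0.133, adjusted p = 0.846), and the value was -0.0044 without control 1 and control 2. Spry1, its close relative, stood at 15.3, 11.8, 11.5 and 12.8 FPKM in cHET 1 to 4, against 10.7, 12.6, 16.1 and 12.4 FPKM in control 1 to 4 (log2 fold change -0.0023; limma, adjusted p = 0.994). In contrast to Fgf12, neither gene had a library that stood far from the rest.

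Spry4 had the largest difference among the inhibitors. It stood at 4.86, 4.45, 5.93 and 7.52 FPKM in cHET 1 to 4, against 3.97, 3.85, 5.08 and 5.60 FPKM in control 1 to 4. The highest value was in cHET 4 and the 2 lowest in control 1 and control 2, with overlap in between. The means were 5.69 ± 1.37 FPKM in cHET and 4.63 ± 0.857 FPKM in control (SD, n = 4), and limma gave 0.24 on the log2 scale (SE 0.158, adjusted p = 0.663). It was 0.056 without control 1 and control 2 and 0.12 without cHET 4.

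The SPRED genes, whose products bring the RAS inactivator neurofibromin to the membrane, had smaller differences than Spry4. Spred1 had the narrowest spread of the members, at 6.17, 6.41, 6.34 and 6.93 FPKM in cHET 1 to 4, against 6.04, 6.38, 6.29 and 6.36 FPKM in control 1 to 4 (log2 fold change 0.038, 95% interval -0.12 to 0.19; limma, adjusted p = 0.864). Spred2 stood at 6.02, 5.43, 6.75 and 7.70 FPKM in cHET 1 to 4, against 4.89, 4.57, 6.64 and 7.20 FPKM in control 1 to 4 (log2 fold change 0.14; limma, adjusted p = 0.763). The value of Spred2 was -0.092 without control 1 and control 2, which were its lowest libraries. Spred3 stood at 1.43, 1.07, 0.651 and 1.08 FPKM in cHET 1 to 4, against 1.30, 0.936, 1.05 and 1.29 FPKM in control 1 to 4 (log2 fold change -0.068; limma, adjusted p = 0.877). Spry3 had 0 to 2 reads per library.

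Genes that act with the FGF members were examined as 3 lists, and none of their genes passed. For comparison with each list, 52.1% of all genes tested were above 0, with a median log2 fold change of 0.0086. Of 21 genes that carry the signal from receptor to ERK, 21 were tested, 0 passed (limma), 14 were above 0 and the median log2 fold change was 0.048. The smallest p belonged to Rasa1, which inactivates RAS (-0.17), Mapk3, an ERK kinase (-0.16), and the adaptor gene Shc1 (-0.15). Mapk3 stood at 39.0 to 42.3 FPKM in cHET and 42.4 to 50.4 FPKM in control, without overlap between the groups, at a limma adjusted p of 0.613.

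Genes that respond to ERK activity are a readout of FGF signalling among other inputs, and 16 of 20 were tested. None passed (limma), 10 were above 0, and the median log2 fold change was 0.049. Fosl1, a partner of JUN, stood at 2.79 to 3.06 FPKM in cHET and 1.77 to 2.78 FPKM in control, without overlap (log2 fold change 0.32; limma, adjusted p = 0.441). Ccnd1, the cyclin of G1 entry, had 0.50 (adjusted p = 0.582), and Etv5, a transcription factor gene that FGF signals switch on, 0.27 (adjusted p = 0.638). Without control 1 and control 2 the log2 fold changes were 0.19 for Fosl1, 0.074 for Ccnd1 and 0.19 for Etv5. With library weights they were 0.17 for Fosl1, 0.26 for Ccnd1 and 0.27 for Etv5. The groups of Mapk3 and of Fosl1 overlapped with an equal FPKM sum, quantile normalization or voom. Etv5, like Spry4, was highest in cHET 4 (5.98 FPKM) and lowest in control 1 (2.68 FPKM), while the lowest library of Spry4 was control 2.

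Heparan sulfate chains hold FGF ligands to their receptors, and 20 of 25 genes of their proteoglycans and enzymes were tested. None passed (limma), 11 were above 0, and the median log2 fold change was 0.0048. Sulf2, a sulfatase that trims the chains outside the cell, stood at 26.4, 33.6, 34.6 and 40.8 FPKM in cHET 1 to 4, against 20.6, 22.4, 30.1 and 27.1 FPKM in control 1 to 4 (log2 fold change 0.42; limma, adjusted p = 0.486). The libraries cHET 2, 3 and 4 lay above each control library. The glypican genes Gpc1 and Gpc3, which encode proteoglycans of the cell surface, had 0.37 (adjusted p = 0.563) and -0.24 (adjusted p = 0.612). Without control 1 and control 2 the log2 fold changes were 0.22 for Sulf2, 0.11 for Gpc1 and -0.20 for Gpc3. With library weights they were 0.29 for Sulf2, 0.13 for Gpc1 and -0.21 for Gpc3.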

How the data were processed

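Poly-T purified RNA of 8 hearts was sequenced. The authors deposited FPKM values, 1 per gene and library, scaled by the gene length that the table gives. The tools named, without roles, are featureCounts 1.5.0-p3, HISAT2 2.0.5 and DESeq2 1.20.0, and the build named is mm9, per the submitters' processing notes. The table's gene bounds equal those of GENCODE M21 on GRCm38 for 98.3% of 54495 genes in both, so coordinates are given on GRCm38. FPKM times gene length was a whole multiple of 1 step per library for 100% of values (within 0.05 reads), which gave rebuilt reads. Whether counting used strand is not given in the sources used here, and 12 of the 21 tested members overlap another gene of the table.

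Genes with a mean of at least 1 FPKM entered limma 3.58.1 in R 4.3.3 as log2(FPKM + 1), with trended, robust variance, no covariate, and Benjamini-Hochberg adjustment over all 13029 genes at 0.05. Fold changes on this scale understate low genes. Fits were also run on simulated reads. These had the same relative spread for every gene and no differences between libraries of a group but depth. That run therefore does not cover the variation between libraries seen here. The members and lists were chosen with earlier results of these data known. Members of at least 1 FPKM are named, with values per library for the 3 highest per role and for those with an unadjusted p under 0.05 or no overlap. Members from 0.1 FPKM are named with ranges, and lower ones counted. Of each pathway list the 3 smallest p are named, and the 3 genes most like each of the 3 members with the smallest p. Their r values are the highest among all protein-coding genes tested, over 8 libraries, and were not tested. Values per library of other members, and the genes beside Fgf12, were chosen after values were seen. Alternatives were another pseudocount, 3 filters, 2 scalings, voom, library weights, a replicate block, sex as a term, and left-out libraries. DESeq2 and edgeR were planned for raw counts alone and were not run. Each library counted as 1 replicate because the series calls the libraries of a group biological replicates. Pairs of libraries within a group differed by a chi-square of at least 13.0 per gene, which does not show that they came from separate animals.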

Additional observations from a re-analysis of the deposited data

Results flagged for a closer look

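Among 29 members with a mean of at least 0.1 FPKM, the 4 libraries of each group were examined for 1 value far from the other 3, and 4 of 58 groups had one. For normally distributed values chance alone gives about 1 in 20 such groups (5%). That rate does not hold for counts of a few reads, so the number of flags cannot be compared with it. Flrt2 in cHET 2 was 2.55 FPKM, above the other cHET libraries at 2.00 to 2.08 FPKM. Fgf7 in cHET 4 was 0.106 FPKM, below the others at 0.201 to 0.216 FPKM, and rests on 6 reads. Fgfr4 in cHET 1 was 0.0495 FPKM, below the others at 0.141 to 0.146 FPKM, and rests on 3 reads. Fgf8 in cHET 1 was 0.0433 FPKM, the single read among 4 libraries of which the others were at 0.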

How the results depend on the processing

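Over 19 alternatives the 21 tested members gave 399 log2 fold changes, of which 368 kept their sign, 31 turned it and 0 passed (lowest limma adjusted p 0.180); 10 members never turned sign. The cause of the turns was not tested. Members whose groups did not overlap numbered 2 with a mean of at least 0.1 FPKM and 2 with no filter (Fgf8, which passes that filter only through control libraries, was added in both), 2 without control 1 and control 2 (Fgf11 was added) and 0 with an equal FPKM sum (TPM). Leaving out 1 library gave 1 to 3, with 3 without cHET 1 (Flrt2, Fgf2 and Fgf18), 2 without control 2 and 2 without control 4. Groups with fewer libraries fail to overlap more often whatever the gene. The share of all genes at each of these settings is not given here, so the counts are not results about the members. The genes past the limma test numbered 11 with library weights and 1 with the replicate block, against 2 to 4 otherwise.

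The median log2 fold change of the members was 0.078 with an equal FPKM sum, where that of all genes was 0.089, -0.051 with library weights and -0.092 without control 1 and control 2. That of the receptor to ERK list was 0.14 with an equal FPKM sum and -0.072 without control 1 and control 2. Signs turned with an equal FPKM sum for Spry1 (0.088), Fgfrl1 (0.052), Fgfr1 (0.017) and Fgf16 (0.078), with voom for Spry1 (0.025) and Fgf16 (0.022), and with sex as a term for Spry1 (0.041) and Fgf16 (0.027). They turned with library weights for Spry2 (-0.031), Fgf13 (-0.052) and Frs2 (-0.016), and without control 1 and control 2 for Spry2 (-0.0044), Fgf13 (-0.13), Spred2 (-0.092) and Frs2 (-0.031). Leaving out each library in turn gave -0.64 to 0.44 for Fgf12, -0.12 to 0.089 for Fgf16, -0.080 to 0.12 for Fgfbp3, -0.10 to 0.014 for Fgfrl1, -0.00043 to 0.087 for Frs2, -0.15 to 0.034 for Spred3, -0.083 to 0.099 for Spry1 and -0.0092 to 0.18 for Spry2.

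Libraries with the same replicate number had correlated deviations of 0.29, 0.27, 0.052 and 0.057, and cHET 3 and cHET 4 correlated best with other numbers (control 4 and control 2), so the numbers were not taken as pairs. With the replicate block 0 members passed (limma) and 4 had an unadjusted p under 0.05 (Spry4, Flrt2, Fgf9 and Fgf18). The share of all genes under 0.05 in that fit is not given here, so this count is not a result about the members. Depth limits members under 0.1 FPKM, which had at most 9 reads in a library.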
